A study of Mus musculus with 10 samples.

Results

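The Slc25 mitochondrial carriers are a family of membrane proteins that move small molecules across the inner mitochondrial membrane. They were taken as the protein-coding genes whose symbol starts with Slc25a, and 47 of the 55952 genes of the deposited table met that rule. They were compared in kidneys of C57BL/6 mice, an inbred strain, kept for 30 days at 4200 m (hypoxia, 5 libraries) or at 400 m (control, 5 libraries). The labels name no other treatment, allele, sex or age, and do not say whether libraries came from separate mice, so p-values may speak only of spread between libraries. Altitude and housing site cannot be told apart, because each group had its own site. RNA of the bulk tissue was sequenced. Levels are given as FPKM, fragments scaled to the deposited length of the gene and to a size of the library. The library sizes that the values imply were 0.949 to 1.10 times the reads assigned to genes. A comparison of levels between genes depends on the deposited lengths.

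The inner mitochondrial membrane is closed to most metabolites, and each carrier lets in or out a narrow set of them in exchange for a counter-substrate or a proton. Carriers feed ADP and phosphate to ATP synthase, pass citrate, malate, aspartate and carnitine esters between cytosol and matrix, and import cofactors, iron and glutathione. In the kidney, cells of the proximal tubule are packed with mitochondria, whose membranes hold these carriers. By substrate, 8 of the genes encode carriers of adenine nucleotides or phosphate, 5 of organic acids or carnitine, 9 of amino acids, and 9 of cofactors or pyrimidine nucleotides. A further 4 concern iron or glutathione, 3 resemble uncoupling proteins, and 9 have other or less certain roles.

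The libraries held 16561672 to 17845464 reads assigned to genes, and a gene of 1 kb needed 0.165 to 0.183 FPKM to rest on 3 reads. Hypoxia replicates 4 and 5 stood apart from the other libraries. Hypoxia replicate 5 correlated with its own group at a median r of 0.853 across genes, hypoxia replicate 4 at 0.959 and the other 8 libraries at 0.968 to 0.982. In hypoxia replicate 5 the 7 erythroid markers summed to 6618 FPKM, with no other library above 665.9 FPKM, and the 5 B cell markers to 447.4 FPKM, with no other library above 15.5 FPKM. The 10 proximal tubule markers summed to 26208, 23053, 12227, 13653 and 14407 FPKM in hypoxia and to between 26543 and 32455 FPKM in controls, so that every hypoxia library lay below every control, and hypoxia replicate 3 was the lowest. Most of that sum was Kap, an abundant tubule transcript, at 22616, 19187, 8239, 10251 and 12397 FPKM in hypoxia and 22476 to 28474 FPKM in controls (limma adjusted p = 0.0498, and 0.129 without hypoxia replicates 4 and 5). With Kap left out, a choice made after its values were seen, the other 9 summed to 2011 FPKM in hypoxia replicate 5, 3402 to 3988 FPKM in the other hypoxia libraries and 3395 to 4150 FPKM in controls. The 7 pancreas acinar markers summed to 50.6 FPKM in hypoxia replicate 5 and 23.2 to 49.6 FPKM elsewhere. Of these, Ctrb1 was at 15.4 FPKM in hypoxia replicate 5, against at most 0.068 FPKM elsewhere. Cela1 was lowest in that library, at 17.7 FPKM, against 23.2 to 49.6 FPKM elsewhere. In hypoxia replicate 4 the 6 adrenal cortex markers summed to 1096 FPKM, against at most 13.9 FPKM elsewhere. The 4 brown fat markers summed to 0.291 to 6.06 FPKM in hypoxia and 1.03 to 48.4 FPKM in controls, with no marker of these lists at 0 in all libraries. The part of these tissues in the results below was not tested, and the counts of carriers called are given with and without hypoxia replicates 4 and 5. In bulk tissue, fewer cells of a type and less RNA per cell cannot be told apart.

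Of the 47 carrier genes, 39 reached the mean of 0.5 FPKM over the 10 libraries that was required for the test. Slc25a5, which encodes the main ADP/ATP exchanger of many tissues, had the highest level, at 459.4, 489.8, 494.1, 471.5 and 347.9 FPKM in hypoxia replicates 1 to 5 and 603.8, 585.5, 555.8, 501.5 and 550.8 FPKM in control replicates 1 to 5. All hypoxia libraries lay below all control libraries, and hypoxia replicate 5 was the lowest. Slc25a39, a carrier needed for glutathione in mitochondria, had 182.1, 193.2, 169.2, 166.3 and 121.8 FPKM in hypoxia and 210.5, 231.0, 224.8, 189.4 and 209.2 FPKM in controls. Slc25a3, the phosphate carrier that supplies ATP synthase, had 167.9, 153.5, 173.8, 152.4 and 112.4 FPKM in hypoxia and 176.0, 185.4, 188.9, 159.3 and 179.8 FPKM in controls. The groups of both genes overlapped. The order of levels depends on the deposited lengths. Slc25a3 had 158228 reads over all libraries and 5550 bases, and Slc25a5 143951 reads and 1646 bases.

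The next levels belonged to Slc25a10, Slc25a4 and Slc25a11. Slc25a10, which exchanges malate or succinate for phosphate, had 112.9, 131.7, 88.1, 99.5 and 71.1 FPKM in hypoxia and 136.9, 160.9, 127.2, 105.0 and 138.4 FPKM in controls. Slc25a4, the ADP/ATP exchanger of heart and muscle, had 100.6, 117.9, 112.4, 113.2 and 69.5 FPKM in hypoxia and 141.3, 138.4, 120.3, 116.2 and 133.3 FPKM in controls. Slc25a11, which exchanges 2-oxoglutarate for malate, had 85.4, 82.6, 78.2, 74.7 and 58.7 FPKM in hypoxia and 86.9, 95.0, 83.9, 74.3 and 84.7 FPKM in controls. In each of these 3 genes the groups overlapped and hypoxia replicate 5 was the lowest library. Slc25a10 and Slc25a4 had close means over all libraries, of 117.2 and 116.3 FPKM, and a difference between them was not tested. The 8 genes below the filter are described at the end.

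**Figure D1:**
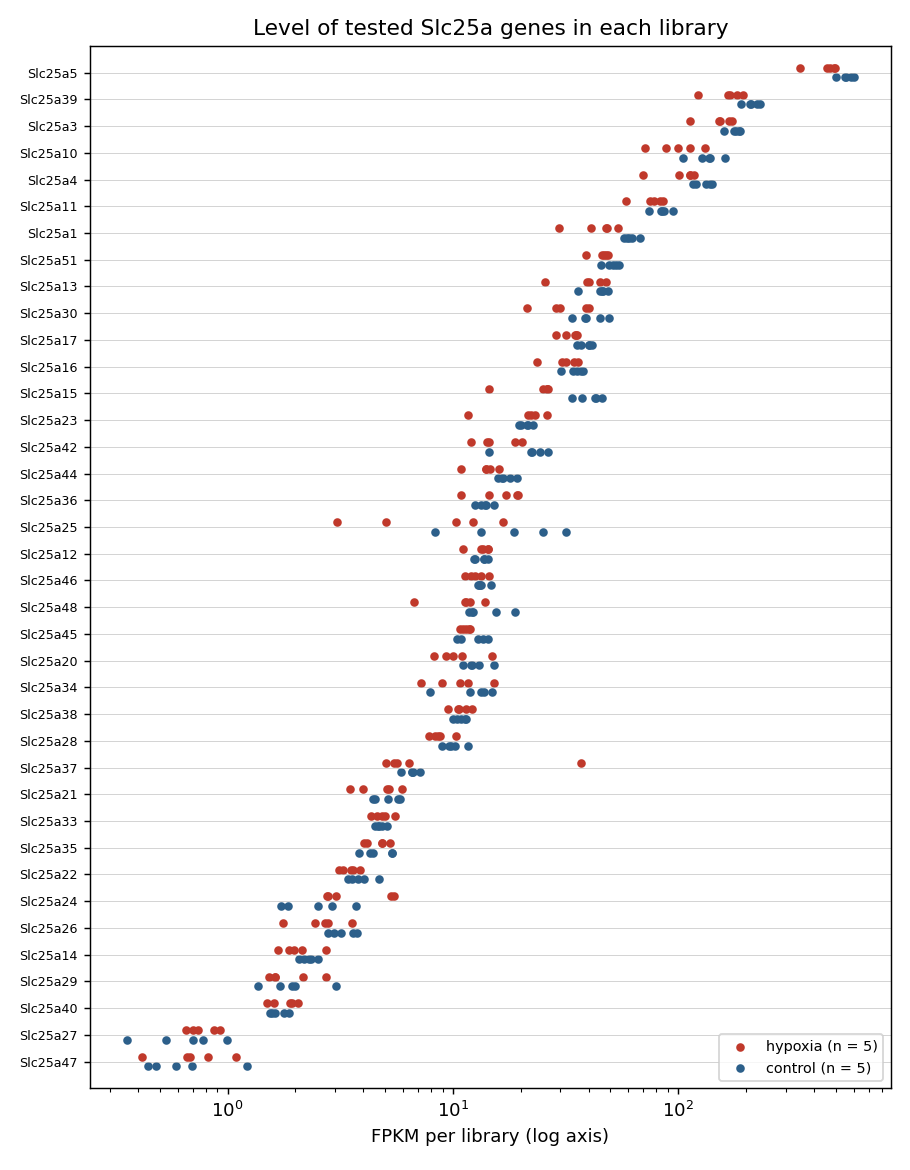
FPKM in each library (log axis) of 38 of the 39 tested Slc25a genes, ordered from the highest mean at the top to the lowest at the bottom, with the 5 hypoxia libraries in red above the 5 control libraries in blue. Slc25a5 leads at 347.9 to 494.1 FPKM in hypoxia and 501.5 to 603.8 FPKM in controls, and single points far from their group are seen for Slc25a37.

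Most carriers had somewhat lower values in hypoxia, but few passed the test. Slc25a15 was among 2 carriers that fell, and 0 carriers rose, at an adjusted p of 0.05 (limma on log2(FPKM + 0.5) over 15264 genes, Benjamini-Hochberg adjustment). The share lower was 5.13% of the 39 tested carriers, against 7.79% of all tested genes. The share higher was 0.0%, against 3.66% of all tested genes. At an unadjusted p under 0.05, 12 carriers were lower and 0 higher, or 30.8% and 0.0%, against 16.8% and 12.3% of all genes. They were 9 lower and 1 higher without hypoxia replicates 4 and 5, where 15.9% and 12.5% of all genes were. With limma voom on recovered reads 2 carriers were lower, Slc25a15 again among them, and 0 higher, where 6.05% of all genes were lower and 5.18% higher. Without hypoxia replicate 5, 5 carriers were lower and 1 higher, where 11% and 7.39% of all genes were, and with a weight for each library 6 and 1, where 12.7% and 8.58% were. The log2 fold change was below 0 in 31 of 39 carriers, against 48.3% of all tested genes, and above 0 in 8, against 51.7%, with a median of -0.17 against 0.012 over all tested genes. With voom it was below 0 in 27 of 39, against 40% of all genes. Without hypoxia replicates 4 and 5 it was below 0 in 29 of 39, against 50.1% of all genes, with a median of -0.11 against -0.00046, and 3 carriers were lower and 0 higher, where 7.75% and 4.53% of all genes were.

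The hypoxia groups of 5 carriers lay wholly below their controls, which is 12.8% of those tested against 8.54% of all genes, and 0 lay wholly above, against 5.68% of all genes. Without hypoxia replicates 4 and 5, 6 lay wholly below, or 15.4% against 11.8% of all genes, and 0 above, against 9.73%. Among those 5 were Slc25a5, Slc25a1, Slc25a17 and Slc25a15. The other 34 tested carriers had overlapping groups. Summed over all 47 genes, the level was 1602, 1677, 1593, 1550 and 1181 FPKM in hypoxia and 1916, 1976, 1874, 1658 and 1878 FPKM in controls, so that hypoxia replicate 2 lay above control replicate 4.

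**Figure D2:**
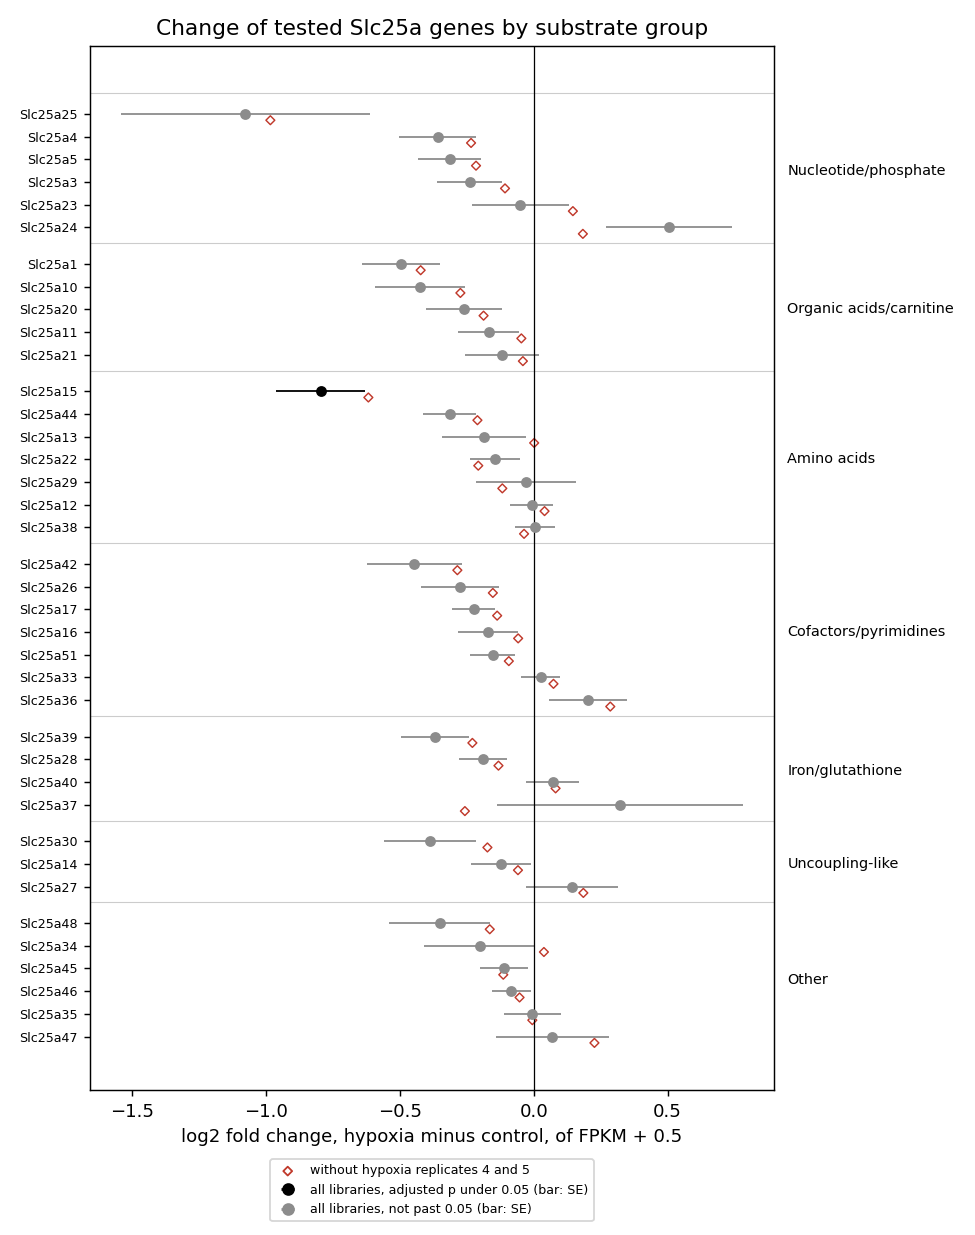
Log2 fold change (hypoxia minus control, of FPKM + 0.5) of 38 of the 39 tested Slc25a genes by substrate group. Circles with SE bars are from all 10 libraries, black where the adjusted p was under 0.05, and open diamonds are from the fit without hypoxia replicates 4 and 5. Of the genes drawn, Slc25a15 at -0.80 is black, and 26 of 38 diamonds lie nearer 0 than their circles.

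Slc25a15, which exchanges cytosolic ornithine for citrulline of the matrix, fell in hypoxia. It had 26.0, 26.2, 26.4, 25.2 and 14.5 FPKM in hypoxia and 42.9, 43.3, 37.3, 33.9 and 46.1 FPKM in controls. Hypoxia replicates 1 to 4 lay within a narrow band, hypoxia replicate 5 lay far below it, and all were below the controls. Its mean was 23.7 ± 5.16 FPKM in hypoxia and 40.7 ± 4.98 FPKM in controls (SD, n = 5 each). Its log2 fold change was -0.80, with an SE of 0.167 (limma adjusted p = 0.0149), and it was -0.62 without hypoxia replicates 4 and 5 (adjusted p = 0.00681). Slc25a15 (ENSMUSG00000031482) lies on chromosome 8 from 22375551 to 22398597 in GRCm38. Oat, which breaks down ornithine inside mitochondria and was on a list of partner enzymes, rose to 135.3 ± 21.5 FPKM in hypoxia, against 101.5 ± 5.62 FPKM in controls (log2 fold change 0.40, limma adjusted p = 0.0457).

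**Figure D3:**
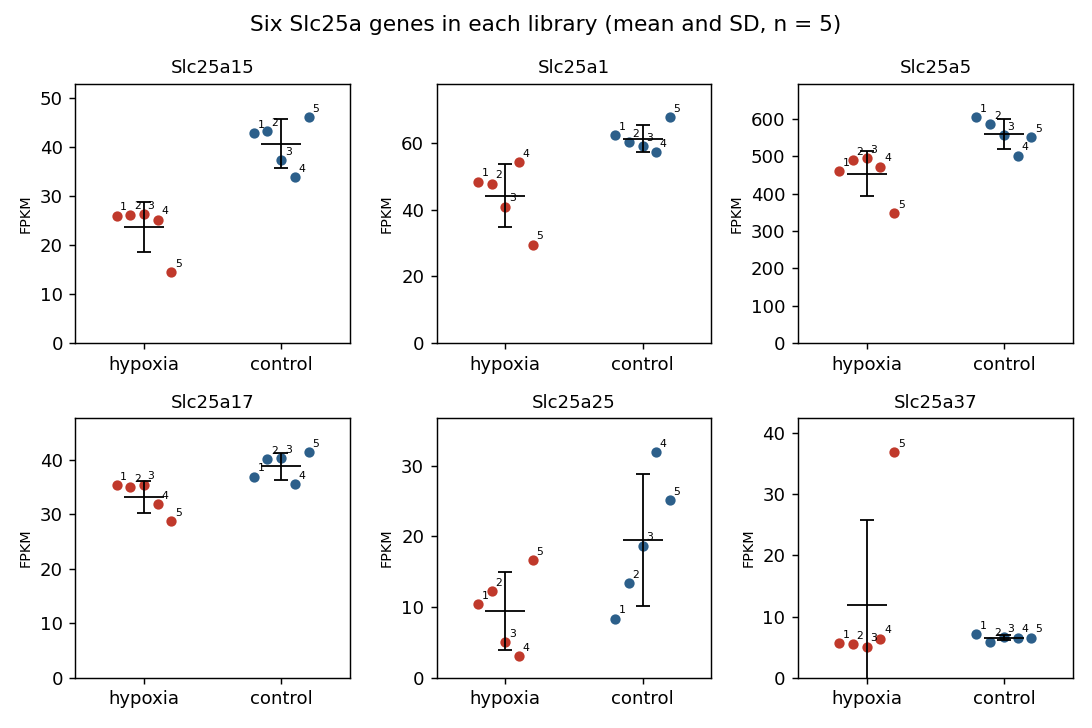
FPKM of Slc25a15, Slc25a1, Slc25a5, Slc25a17, Slc25a25 and Slc25a37 in the 5 hypoxia (left) and 5 control (right) libraries, numbered by replicate, with mean and SD (the lower bar of hypoxia Slc25a37 is cut at 0). Hypoxia lies wholly below control in the first 4 genes, Slc25a25 is widely spread in both groups, and Slc25a37 is near 5 to 7 FPKM except for 36.9 FPKM in hypoxia replicate 5.

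Promoters were available for 36 of the 47 genes, from 250 bases before to 50 bases after a RefSeq start in GRCm38.p6, among them 4 of the 5 genes whose groups did not overlap. They are shown, 5′ to 3′ on the gene's strand, because these are the carriers that separated the groups. Capitals mark matches on either strand to the HIF core ACGTG, to the ETS core CCGGAA bound by GABP, to the NRF1 core TGCGCA and to AAGGTCA, the site of estrogen-related receptors. HIF is the hypoxia-inducible factor, and the other 3 are known regulators of mitochondrial genes.
Slc25a15 (chr8:22398572-22398871, minus strand): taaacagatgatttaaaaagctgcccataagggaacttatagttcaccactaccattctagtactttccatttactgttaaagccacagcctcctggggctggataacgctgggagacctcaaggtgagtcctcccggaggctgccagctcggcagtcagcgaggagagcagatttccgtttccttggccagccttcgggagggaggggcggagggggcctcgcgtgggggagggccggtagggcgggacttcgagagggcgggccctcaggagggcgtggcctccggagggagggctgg
Slc25a5 (chrX:36795347-36795646, plus strand): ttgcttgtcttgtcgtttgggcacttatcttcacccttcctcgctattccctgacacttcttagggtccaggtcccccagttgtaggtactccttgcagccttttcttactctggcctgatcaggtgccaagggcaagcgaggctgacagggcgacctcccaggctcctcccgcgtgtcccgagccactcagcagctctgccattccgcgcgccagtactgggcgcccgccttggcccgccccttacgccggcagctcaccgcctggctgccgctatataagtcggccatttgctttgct
Slc25a1 (chr16:17928170-17928469, minus strand): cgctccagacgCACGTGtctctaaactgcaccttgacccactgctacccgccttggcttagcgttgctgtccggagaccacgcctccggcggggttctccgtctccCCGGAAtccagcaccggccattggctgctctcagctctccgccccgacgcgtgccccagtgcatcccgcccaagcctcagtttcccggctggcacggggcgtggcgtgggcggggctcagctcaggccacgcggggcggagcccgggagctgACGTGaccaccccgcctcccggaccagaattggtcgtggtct
Slc25a17 (chr15:81360716-81361015, minus strand): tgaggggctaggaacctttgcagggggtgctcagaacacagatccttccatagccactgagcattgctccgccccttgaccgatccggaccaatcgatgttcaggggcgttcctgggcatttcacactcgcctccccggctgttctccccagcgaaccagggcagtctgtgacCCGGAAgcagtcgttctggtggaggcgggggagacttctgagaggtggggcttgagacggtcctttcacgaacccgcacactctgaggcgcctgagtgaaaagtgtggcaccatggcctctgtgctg

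The windows of Slc25a15 and Slc25a5 held none of the 4 motifs as spelled here. For HIF only ACGTG was searched, and GCGTG, which both windows hold, was not counted. The window of Slc25a5 ended at 36795646, before the deposited start of the gene at 36795651. That of Slc25a1 held the HIF core at 3 places, of which 2 overlap on opposite strands, and the ETS core at 1, and that of Slc25a17 held the ETS core at 1. Over the tested carriers with a promoter, 8 of 31 held the HIF core (25.8%), against 25.3% of 10477 promoters of tested genes. The ETS core was in 10 of 31 (32.3%), against 27.4%, the NRF1 core in 3 (9.68%), against 13.8%, and AAGGTCA in 1 (3.23%), against 3.28%. A match is a run of letters in these windows and no evidence of binding.

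Among the carriers of organic acids, all 5 tested genes had log2 fold changes below 0 and 0 passed the test, with a median of -0.26. Slc25a1, which exports citrate for lipid synthesis, came nearest. It had 48.4, 47.8, 40.9, 54.3 and 29.5 FPKM in hypoxia and 62.4, 60.2, 59.0, 57.3 and 67.7 FPKM in controls. The groups did not overlap, and hypoxia replicate 5 was the lowest. The log2 fold change of Slc25a1 was -0.50 (SE 0.146, limma adjusted p = 0.0526). Without hypoxia replicates 4 and 5 it was -0.42 and passed (adjusted p = 0.0133). Acly, the cytosolic enzyme that splits the exported citrate, was at 39.0 ± 9.17 FPKM in hypoxia and 49 ± 5.61 FPKM in controls (limma adjusted p = 0.141, and 0.0167 without hypoxia replicates 4 and 5).

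The other 4 genes of that group had overlapping groups. The log2 fold change of Slc25a10 was -0.42 (SE 0.169, limma adjusted p = 0.125), and that of Slc25a11 was -0.17 (SE 0.112, limma adjusted p = 0.336). The sources used here do not say whether reads were counted by strand, and 8.92% of the exon bases of Slc25a11 overlap the opposite-strand gene Rnf167. Slc25a20, the carnitine and acylcarnitine exchanger that brings long-chain fatty acids to oxidation, was at 10.7 ± 2.53 FPKM in hypoxia and 12.7 ± 1.55 FPKM in controls. Slc25a21, a carrier of 2-oxoadipate, was at 4.74 ± 0.992 FPKM in hypoxia and 5.13 ± 0.661 FPKM in controls.

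Among the nucleotide and phosphate carriers, 6 of 8 were tested, 0 passed, and 5 had log2 fold changes below 0 (median -0.28). The log2 fold changes of the most abundant members were -0.31 for Slc25a5 (SE 0.118, limma adjusted p = 0.109), -0.36 for Slc25a4 (SE 0.144, limma adjusted p = 0.130) and -0.24 for Slc25a3 (SE 0.122, limma adjusted p = 0.217). Without hypoxia replicates 4 and 5 they were -0.22, -0.23 and -0.11. Slc25a25, Slc25a24 and Slc25a23 are calcium-regulated carriers of ATP-Mg against phosphate. Slc25a25 had 10.4, 12.3, 5.05, 3.05 and 16.6 FPKM in hypoxia and 8.33, 13.4, 18.7, 31.9 and 25.2 FPKM in controls. Its groups overlapped, and its log2 fold change of -1.08, farther from 0 than that of any other tested carrier, had an SE of 0.464 and did not pass (limma adjusted p = 0.153). Slc25a24 had 3.04, 2.76, 2.79, 5.29 and 5.48 FPKM in hypoxia and 1.72, 2.91, 1.86, 3.72 and 2.51 FPKM in controls. It was highest in hypoxia replicates 4 and 5. Its log2 fold change was 0.51 (limma adjusted p = 0.181), and 0.18 without those 2 libraries. Slc25a23 was at 21 ± 5.47 FPKM in hypoxia and 21 ± 1.21 FPKM in controls.

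Among the amino acid carriers, 7 of 9 were tested and Slc25a15 was the 1 that passed (median -0.14). The aspartate/glutamate carriers of the malate-aspartate shuttle had overlapping groups. Slc25a13, known as citrin, had 47.7, 45, 40.2, 39.2 and 25.7 FPKM in hypoxia and 45, 48.8, 46.5, 35.8 and 45.8 FPKM in controls. Slc25a12, known as aralar, had 13.4, 13.6, 14.3, 14.4 and 11 FPKM in hypoxia and 14.4, 13.8, 13.7, 12.4 and 12.5 FPKM in controls. Their log2 fold changes were -0.19 (limma adjusted p = 0.452) and -0.0078 (limma adjusted p = 0.958), and 0.0019 and 0.041 without hypoxia replicates 4 and 5.

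Slc25a44, which carries branched-chain amino acids, was at 13.9 ± 1.88 FPKM in hypoxia and 17.3 ± 1.32 FPKM in controls (log2 fold change -0.31, limma adjusted p = 0.0662). The glutamate carrier Slc25a22 had 3.12, 3.53, 3.25, 3.61 and 3.87 FPKM in hypoxia and 3.80, 4.04, 3.57, 3.42 and 4.71 FPKM in controls. Its relative Slc25a18 was not tested, with 4, 3, 4, 6 and 18 reads in hypoxia and 3, 3, 7, 9 and 2 reads in controls. Slc25a29, a carrier of basic amino acids, had 1.62, 1.52, 2.17, 2.75 and 1.62 FPKM in hypoxia and 1.93, 1.71, 1.99, 3.02 and 1.36 FPKM in controls, with no order between the groups. Slc25a38, which brings glycine to heme synthesis, was at 10.9 ± 1.00 FPKM in hypoxia and 10.8 ± 0.600 FPKM in controls.

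Of the cofactor and pyrimidine nucleotide carriers, 8 of 9 were tested and 1 passed (median -0.20). Slc25a17, a peroxisomal member of the family that carries coenzyme A and related cofactors, had 35.3, 35.0, 35.4, 31.8 and 28.7 FPKM in hypoxia and 36.9, 40.1, 40.3, 35.6 and 41.4 FPKM in controls. The groups were separated by a narrow gap, and the log2 fold change of -0.22 did not pass (SE 0.0802, limma adjusted p = 0.0953). Slc25a42, the mitochondrial coenzyme A carrier, was at 16 ± 3.44 FPKM in hypoxia and 21.9 ± 4.49 FPKM in controls (log2 fold change -0.45, limma adjusted p = 0.128). Slc25a51, the NAD+ carrier, was at 45.7 ± 3.90 FPKM in hypoxia and 50.8 ± 3.52 FPKM in controls, and Slc25a16 and Slc25a26 had log2 fold changes of -0.17 and -0.27.

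Slc25a36 and Slc25a33 carry pyrimidine nucleotides. Slc25a36 had 17.3, 14.5, 19.3, 19.5 and 10.9 FPKM in hypoxia and 14, 12.6, 15.2, 13.4 and 13.9 FPKM in controls, so that 3 hypoxia libraries lay above all controls and hypoxia replicate 5 below them. Its log2 fold change was 0.20 (SE 0.145, limma adjusted p = 0.369). Without hypoxia replicate 5 it was 0.34 and passed (adjusted p = 0.0315), while without hypoxia replicates 4 and 5 it was 0.29 (adjusted p = 0.0849). Slc25a33 had 4.6, 5.02, 5.53, 4.87 and 4.33 FPKM in hypoxia and 4.49, 4.65, 4.70, 4.87 and 5.10 FPKM in controls, with 14.9% of its exon bases shared with the antisense gene Gm13068. Its groups overlapped, with a log2 fold change of 0.026 (limma adjusted p = 0.837).

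All 4 iron and glutathione carriers were tested and 0 passed. Slc25a37, mitoferrin 1, the iron importer best known from red cell precursors, had 5.67, 5.49, 5.06, 6.40 and 36.9 FPKM in hypoxia and 7.13, 5.91, 6.62, 6.57 and 6.56 FPKM in controls. Hypoxia replicate 5 stood far above every other library, and hypoxia replicates 1 to 3 lay below all controls. In the same library the erythroid gene Alas2 was at 103.7 FPKM, while the other 9 libraries had no more than 10.9 FPKM. The log2 fold change of Slc25a37 was 0.32 (SE 0.459, limma adjusted p = 0.663), and -0.26 without hypoxia replicates 4 and 5 (adjusted p = 0.0512). Its relative Slc25a28, mitoferrin 2, had 8.74, 10.4, 8.32, 8.61 and 7.80 FPKM in hypoxia and 9.59, 10.2, 11.7, 9.83 and 8.97 FPKM in controls (log2 fold change -0.19, limma adjusted p = 0.189).

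The log2 fold change of Slc25a39 was -0.37 (SE 0.127, limma adjusted p = 0.0859). Without hypoxia replicate 5 it was -0.26 and passed (adjusted p = 0.0414), and without hypoxia replicates 4 and 5 it was -0.23 (adjusted p = 0.111). Slc25a40, its close relative, had 2.06, 1.89, 1.5, 1.61 and 1.92 FPKM in hypoxia and 1.63, 1.55, 1.58, 1.78 and 1.87 FPKM in controls, with overlapping groups (limma adjusted p = 0.655).

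The uncoupling-like genes and those of less certain role had overlapping groups and 0 of 9 tested passed. Slc25a30 was the most abundant, at 31.9 ± 7.88 FPKM in hypoxia and 41.2 ± 6.09 FPKM in controls (log2 fold change -0.39, limma adjusted p = 0.165). Slc25a14 and Slc25a27 had log2 fold changes of -0.12 and 0.14. The remaining 6, Slc25a34, Slc25a35, Slc25a45, Slc25a46, Slc25a47 and Slc25a48, ranged from -0.35 for Slc25a48 to 0.070 for Slc25a47. Of the exon bases of Slc25a35, 31.3% overlap the opposite-strand gene Rangrf.

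Carriers of like substrate were also set against each other inside each library, where a change that scales both genes largely drops out. Because 0.5 FPKM was added to each value, it does not drop out fully where a gene is low, as Slc25a40 and Slc25a29 were. Of 8 such pairs 7 were tested, since Slc25a18 was below the filter. Of these 0 passed an exact two-sided permutation test after Benjamini-Hochberg adjustment over the 7. That test allows a smallest p of 0.00794 for 5 libraries against 5, and 1 pair alone at that p could not pass after adjustment. The log2 ratio of Slc25a40 to Slc25a39 was -6.17 ± 0.302 in hypoxia and -6.61 ± 0.189 in controls (SD, n = 5 each, exact permutation p = 0.0159, adjusted p = 0.0926). That of Slc25a10 to Slc25a11 was 0.39 ± 0.187 in hypoxia and 0.64 ± 0.101 in controls (exact permutation p = 0.0317, adjusted p = 0.0926). That of Slc25a15 to Slc25a29 was 3.30 ± 0.397 in hypoxia and 4.07 ± 0.507 in controls (exact permutation p = 0.0397, adjusted p = 0.0926). The log2 ratio of the ADP/ATP exchangers, Slc25a5 to Slc25a4, was 2.15 ± 0.109 in hypoxia and 2.10 ± 0.0602 in controls (exact permutation p = 0.5, adjusted p = 0.583). The ratios of Slc25a13 to Slc25a12, Slc25a36 to Slc25a33 and Slc25a37 to Slc25a28 had exact permutation p = 0.190, 0.222 and 0.667. The groups overlapped in all 7 ratios.

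Hypoxia replicate 5 had the lowest of the 10 values in 26 of the 39 tested carriers (66.7%), against 29.1% of all tested genes. Its carriers lay at a median of -0.43 from their control mean on the log2(FPKM + 0.5) scale, and those of hypoxia replicates 1 to 4 at -0.14, -0.086, -0.15 and -0.18. Control replicate 4 was the lowest control, at -0.12, and the other controls lay between 0.012 and 0.062. The median of all tested genes was between -0.017 and 0.019 in every library. The proximal tubule markers were lowest in hypoxia replicate 3 as a whole list and in hypoxia replicate 5 with Kap left out, and their part in these shifts was not tested.

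**Figure D4:**
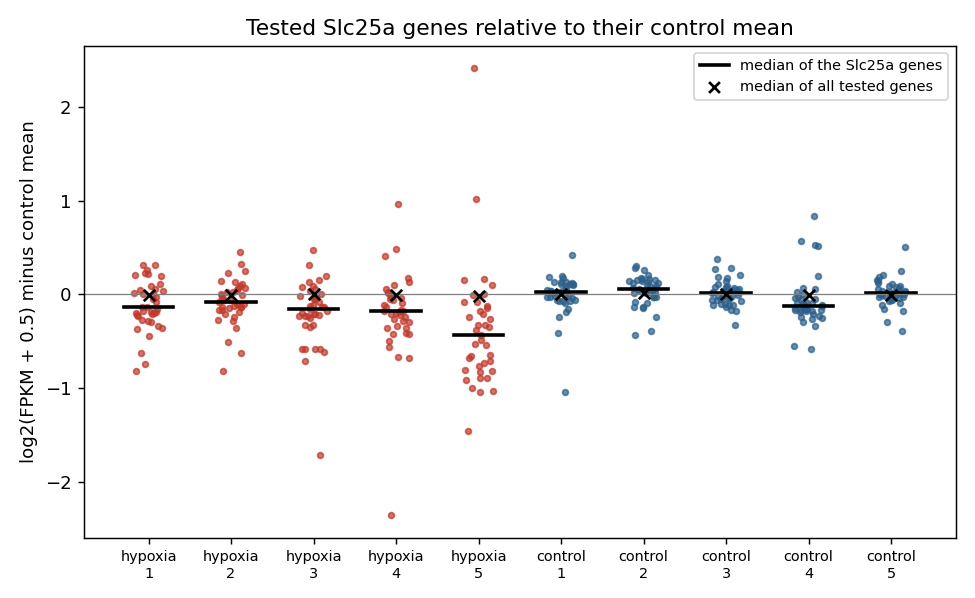
Log2(FPKM + 0.5) of the 39 tested Slc25a genes minus each gene's control mean, by library, hypoxia in red at left and control in blue at right. Bars are medians of the Slc25a genes and crosses medians of all tested genes. The bar of hypoxia replicate 5 is at -0.43 while the crosses stay between -0.017 and 0.019.

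Carrier-fold genes with other names were looked at in the same fit. Of 5 on the list 4 were tested, 1 fell and 0 rose, where 7.79% of all tested genes were lower and 3.66% higher. The gene that fell was Ucp1, the uncoupling protein of brown fat. Ucp1 was at 0.0349, 0, 0, 0.0344 and 0.101 FPKM in hypoxia and 9.31, 4.28, 0, 14.4 and 8.53 FPKM in controls (limma adjusted p = 0.0244, and 0.0599 without hypoxia replicates 4 and 5). The brown fat markers Cidea and Cox8b were high in the same 4 control libraries, while Elovl3, also on that list, was at most 0.152 FPKM in every library. Ucp2, known from immune cells among others, had 10.8, 11.6, 12.1, 13.6 and 68.8 FPKM in hypoxia and 17.4, 23.5, 18, 20.3 and 18.9 FPKM in controls. It did not pass with all libraries (limma adjusted p = 0.801) and was lower without hypoxia replicates 4 and 5 (log2 fold change -0.74, adjusted p = 0.00292).

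Genes that insert carriers into the inner membrane were lower in 2 of 10 cases and higher in 0, where 7.79% of all tested genes were lower and 3.66% higher. The count was 1 of 10 lower without hypoxia replicates 4 and 5, where 7.75% of all genes were. Timm13, a small chaperone of the intermembrane space, fell to 28.4 ± 7.73 FPKM in hypoxia, against 49 ± 4.99 FPKM in controls (limma adjusted p = 0.0129), and its partner family member Timm8b to 87.9 ± 11.1 FPKM, against 116.0 ± 11.3 FPKM in controls (adjusted p = 0.0411, and 0.0674 without hypoxia replicates 4 and 5). Timm22, the insertion channel itself, was at 8.74 ± 0.786 FPKM in hypoxia and 10.8 ± 1.17 FPKM in controls (adjusted p = 0.0587). Of 18 other transport genes of the inner membrane 3 were lower and 0 higher, and 2 were lower without hypoxia replicates 4 and 5. Letm1, an ion exchanger of the inner membrane, fell to 11.5 ± 1.66 FPKM in hypoxia, against 19.6 ± 1.48 FPKM in controls (limma adjusted p = 0.00265). Smdt1, a subunit of the calcium uniporter, fell to 48.3 ± 5.34 FPKM, against 72.6 ± 6.52 FPKM in controls (adjusted p = 0.00619).

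The 3 porins of the outer membrane, through which the same metabolites pass, had 0 genes past the test. Vdac1 was at 249.5 ± 40.2 FPKM in hypoxia and 288.0 ± 20.8 FPKM in controls, and Vdac2 at 48.0 ± 5.07 FPKM in hypoxia and 46.8 ± 2.68 FPKM in controls. Enzymes that work next to carriers were counted in the same way, where 7.79% of all tested genes were lower and 3.66% higher. In the shuttle and citrate list 3 of 11 were lower, among them Cs, and 1 higher, Oat. In the carnitine and fatty acid list 2 of 7 were lower, Acadm and Acadvl, and in the iron and heme list 2 of 6, among them Nfs1. Nfs1, the sulfur donor of iron-sulfur clusters, was at 23.9 ± 4.02 FPKM in hypoxia and 35.3 ± 3.07 FPKM in controls (limma adjusted p = 0.0177). Without hypoxia replicates 4 and 5, 7.75% of all genes were lower and 4.53% higher. In that fit 2 of 6 genes of the iron and heme list and 2 of 7 of the carnitine and fatty acid list were lower. Of the shuttle and citrate list, 3 of 11 were lower and 1 higher.

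The 8 carriers below the filter were Slc25a53, Slc25a43, Slc25a32, Slc25a18, Slc25a2, Slc25a41, Slc25a54 and Slc25a31. Slc25a53, of unknown substrate, had 41 to 71 reads in 9 libraries and 208 in hypoxia replicate 5. Slc25a32, a carrier of folate and flavin cofactors, had 14, 33, 51, 36 and 8 reads in hypoxia and 4, 11, 19, 29 and 5 reads in controls. Slc25a43 had 9 to 15 reads in hypoxia and 5 to 18 in controls, and Slc25a2, a second ornithine carrier, 0 to 5 and 0 to 7. Slc25a41 and Slc25a54 had 5 and 3 reads over all 10 libraries. Slc25a31, an ADP/ATP exchanger known from the testis, had 0 reads in all, where 3 reads would be at most 0.0859 FPKM, counting error only. None of the 8 genes was tested for a difference.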

How the data were processed

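The 5 hypoxia and 5 control kidney libraries were grouped by the treatment label, with replicate numbers from the titles. The extraction text in the labels names retina, while tissue and source are labelled kidney. The authors deposited 1 table of FPKM values with gene names, coordinates and lengths. The deposited gene length in bases, an other unit, served to recover reads. Per the submitters' processing notes, HISAT2 2.0.5 was used, and hg38 is listed although the gene IDs are mouse. Of the 47 members, 46 had the same start and end in a GRCm38 annotation, so coordinates are given as GRCm38. No source used here gives the counting tool or its use of strand.

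FPKM times length fell on whole multiples of 1 step in 100% of values (tolerance 0.05). Median-of-ratios factors computed from the deposited FPKM were 1.00 in all libraries, so that scaling was already present. A gene entered a fit where its mean in the fitted libraries reached 0.5 FPKM, and limma 3.58.1 (trend and robust, R 4.3.3) was run on log2(FPKM + 0.5), hypoxia minus control, two-sided, with Benjamini-Hochberg adjustment over all tested genes. This scale understates changes of low genes. Log2 ratios of paired carriers used exact permutation over 252 regroupings. Figures used matplotlib 3.10.9.

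The members and lists were chosen with earlier results of these data known. Values in every library are given for carriers past the threshold, the 6 most abundant, both genes of each ratio pair and, chosen after their values were seen, Slc25a1, Slc25a17, Slc25a24, Slc25a25, Slc25a32 and Ucp2. From each list members past the threshold are named (up to 4), or else the 2 most abundant. Some genes that this rule picks are not reported here. Acly, Timm22, Alas2, Cidea, Cox8b, Elovl3, Ctrb1 and Cela1 were also chosen after their values were seen. Alternatives covered pseudocount, filter, scaling, error model, replicate block and omitted libraries. The proximal tubule sum without Kap was added after seeing the data. Protein sequences were not used here.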

Additional observations from a re-analysis of the deposited data

Results flagged for a closer look

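In 78 groups of 5 libraries (39 carriers, 2 groups each), the highest or lowest library was tested for its distance from the others, and chance gives about 1 flag in 20 groups, or 3.9 here. There were 5, of which 4 were hypoxia replicate 5. That library was far above its group for Slc25a37, at 36.9 FPKM, and far below it for Slc25a5 at 347.9 FPKM, Slc25a15 at 14.5 FPKM and Slc25a51 at 38.9 FPKM. It also had the highest sums of erythroid, B cell, and macrophage and neutrophil markers. With Kap left out it had the lowest proximal tubule markers, which as a whole list were lowest in hypoxia replicate 3 (12227 FPKM, against 14407 FPKM in hypoxia replicate 5). The part of these markers in the 4 values was not tested. Control replicate 1 was above its group for Slc25a46, a protein of the outer membrane, at 14.8 FPKM.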

How the results depend on the processing

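Slc25a15 passed the threshold in 21 of 22 alternative fits, with log2 fold changes of -0.86 to -0.62. The scalings moved the median log2 fold change of all genes by less than 0.1. It was 0.073 with TPM and 0.076 when rescaled without the 100 most abundant genes. The median of the carriers, -0.17 on the deposited scale, was -0.11 and -0.097 in these 2 fits. The number of carriers lower, 2 with all libraries, was 6 with a quality weight per library, 1 with a replicate block and 2 to 5 with 1 library left out, with 4 without hypoxia replicate 2 and 5 without hypoxia replicate 5. The number higher, 0 with all libraries, was 1 (Slc25a36) with library weights and 0 to 1 with 1 library left out. Fits without 1 library hold fewer samples; otherwise the cause was not tested.

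Over all genes, 559 were higher and 1189 lower. The counts were 1309 and 1944 with library weights, 263 and 703 with no filter beyond a mean above 0, and 919 and 770 when rescaled without the 100 most abundant genes. With 1 library left out they were 221 to 1094 higher and 603 to 1630 lower, highest without hypoxia replicate 5. With the replicate block 265 were higher and 734 lower, and Slc25a15 had an adjusted p of 0.0528. Deviations of same-numbered libraries correlated at -0.0771 to 0.0861, and 2 of 5 hypoxia libraries correlated best with their own number. These values cannot settle whether equal numbers mark paired libraries.

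Signs changed only for carriers and ratios that had not passed. With hypoxia replicates 4 and 5 left out, log2 fold changes were 0.0019 for Slc25a13, 0.038 for Slc25a34, -0.26 for Slc25a37, 0.15 for Slc25a23, 0.041 for Slc25a12 and -0.036 for Slc25a38, and the ratio of Slc25a37 to Slc25a28 changed by -0.13. With library weights it was -0.17 for Slc25a37, 0.12 for Slc25a23, 0.033 for Slc25a29, 0.031 for Slc25a12, -0.026 for Slc25a38 and 0.035 for Slc25a35. With TPM, voom on reads and rescaling without the 100 most abundant genes it was 0.012, 0.019 and 0.022 for Slc25a23, 0.025, 0.034 and 0.029 for Slc25a29, 0.056, 0.064 and 0.064 for Slc25a12, and 0.057, 0.068 and 0.062 for Slc25a35. With 1 library left out the ranges were -0.20 to 0.49 for Slc25a37, -0.017 to 0.063 for Slc25a33, -0.027 to 0.21 for Slc25a47, -0.14 to 0.14 for Slc25a23, -0.14 to 0.10 for Slc25a29, -0.035 to 0.056 for Slc25a12, -0.036 to 0.047 for Slc25a38, -0.064 to 0.046 for Slc25a35 and -0.050 to 0.71 for the log2 ratio of Slc25a37 to Slc25a28.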
